A study of Mus musculus with 4 samples.

Results

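Polycomb repressive complex genes were examined in primary T cells of C57BL/6NJ mice by total RNA sequencing. The 10 genes were chosen by name from the 50600 genes counted: the PRC2 subunits Ezh1, Ezh2, Eed and Suz12, the PRC2 cofactor Jarid2, the PRC1 ligases Ring1 and Rnf2, and the PRC1 subunits Bmi1, Cbx2 and Cbx7. All 10 were found by symbol. The series holds 4 libraries of 1 group, labelled as biological replicates 1 to 4, with no genetic change and no untreated group. The file headers name the cells Th0, describe them as activated and give a time of 72 h. A linked protocol names CD4+ T-cell differentiation. The labels give 1 donor identifier for all libraries and no age, and they do not say that the cells came from separate animals. P-values below therefore refer to these libraries only, and the technical part of their spread is not known.

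Polycomb proteins keep genes silent through marks on histone tails. PRC2 places methyl groups on lysine 27 of histone H3 through Ezh1 or Ezh2, and PRC1 adds ubiquitin to histone H2A through Ring1 or Rnf2. CBX proteins of canonical PRC1 bind the methylated histone, and PCGF proteins define which PRC1 assembly forms. In T cells Ezh2 is known for restraining helper cytokine and lineage-factor genes, and it rises when resting lymphocytes enter division.

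Libraries held 49613182 to 94222415 counts, and each pair of libraries differed beyond sampling noise, with chi-square values per degree of freedom from 20.5 to 45.3. The 7 T-cell markers were all detected and summed to 6019 to 6336 TPM per library, TPM being counts per length of counted exons scaled to the same total in each library. None of the 10 markers of other blood and tissue cells was detected, their sum was 2.25 to 3.13 TPM, and S100a8, Hbb-bs and Pf4 had 0 counts in all libraries. The X-linked Xist stood at 332 and 150.1 TPM in replicates 1 and 2, against 0.877 and 0.392 TPM in replicates 3 and 4. The Y-linked Ddx3y stood at 0.0344 and 0.0834 TPM in replicates 1 and 2, against 49.0 and 45.8 TPM in replicates 3 and 4. The libraries thus fell into 2 pairs by sex-linked transcripts, while the labels record sex as not collected. Replicates 1 and 2 thus differ from replicates 3 and 4 by more than library preparation, despite the shared donor identifier. Whether the libraries within a pair came from the same animal is not stated.

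The promoters of the PRC2 subunits are shown first. They were chosen with the levels and the motif matches known, so the contrast in motifs between Ezh2 and Ezh1 was fixed by that choice. Sequences are from RefSeq on GRCm38.p6, written 5′ to 3′ on each gene's strand, and each ends 20 bases into the transcript. The Ezh2 stretch is chr6:47595011-47595160 on the minus strand, Suz12 is chr11:79992876-79993125 on the plus strand, Eed is chr7:89980957-89981186 on the minus strand, and Ezh1 is chr11:101226444-101226593 on the minus strand. Capitals mark matches on either strand to any of 4 motifs. The E2F element was searched as TTTCCCGC, TTTCGCGC, TTTGCCGC and TTTGGCGC. The cell-cycle homology element was searched as TTTGAA, the nuclear factor Y box as CCAAT and the GC box, which Sp1 family factors bind, as GGGCGG.
Ezh2: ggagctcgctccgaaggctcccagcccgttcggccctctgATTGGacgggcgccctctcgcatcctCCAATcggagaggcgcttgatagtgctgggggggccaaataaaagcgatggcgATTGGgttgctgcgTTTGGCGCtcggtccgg
Suz12: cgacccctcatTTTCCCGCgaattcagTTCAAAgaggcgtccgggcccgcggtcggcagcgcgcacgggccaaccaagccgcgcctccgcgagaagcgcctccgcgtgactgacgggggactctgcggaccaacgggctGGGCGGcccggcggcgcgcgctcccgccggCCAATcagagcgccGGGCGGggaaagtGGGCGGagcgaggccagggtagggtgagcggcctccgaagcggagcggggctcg
Eed: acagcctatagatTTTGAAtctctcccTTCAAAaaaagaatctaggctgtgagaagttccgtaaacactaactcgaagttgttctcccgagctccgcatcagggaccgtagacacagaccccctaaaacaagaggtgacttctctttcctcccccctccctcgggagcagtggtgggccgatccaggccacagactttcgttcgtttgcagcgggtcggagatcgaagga
Ezh1: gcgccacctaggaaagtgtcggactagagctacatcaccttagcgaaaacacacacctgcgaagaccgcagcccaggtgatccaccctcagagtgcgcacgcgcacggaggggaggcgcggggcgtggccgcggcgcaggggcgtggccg

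Counted from the RefSeq transcript start, Ezh2 held an E2F match at bases 4 to 11 and CCAAT matches at -90 to -86, -64 to -60 and -11 to -7. The Ezh2 gene as counted for TPM reached upstream to base 47595341, so the printed Ezh2 stretch lay inside that gene's span. Suz12 held an E2F match at -219 to -212, a TTTGAA match at -203 to -198, and CCAAT and GC-box matches nearer the start. Eed held TTTGAA matches at -197 to -192 and -183 to -178. Ezh1 held none of the 4 motifs. RefSeq gave a window of 250 bases before to 50 after the start for 9 of the 10 genes, with more than 1 window for Jarid2. Over these windows the E2F element was found in 2 of 9 genes, against 2.26% of 32851 windows of the same length. TTTGAA was found in 3 of 9 genes, against 17.9% of all windows, CCAAT in 5 of 9, against 37.4%, and the GC box in 6 of 9, against 35.7%. The windows held 54.7 to 74.0% G and C, against a median of 52.7% over all windows, and an observed-over-expected CpG ratio of 0.708 to 1.09, against a median of 0.384. All windows were used for comparison without matching for CpG content, and the E2F element and the GC box both contain CG. These are matches of letters, and binding was not measured. Whether the motifs bear on the levels of the genes was not tested.

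Every one of the 10 genes was detected, defined as at least 1 TPM in every library, against 49.4% of 21764 protein-coding genes. TPM is per length, so levels of different genes can be set side by side, but several steps in their order depend on the length used, as given below. Mean levels ran from 21.3 TPM for Ezh1 to 158 TPM for Suz12, with a median of 46.8 TPM, against 34.8 TPM over the 10754 detected protein-coding genes. Of the 10 genes, 7 stood above that median and Jarid2, Cbx2 and Ezh1 stood below it. The RNA was measured in bulk, so fewer cells of a type and less RNA per cell cannot be told apart.

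**Figure D1:**
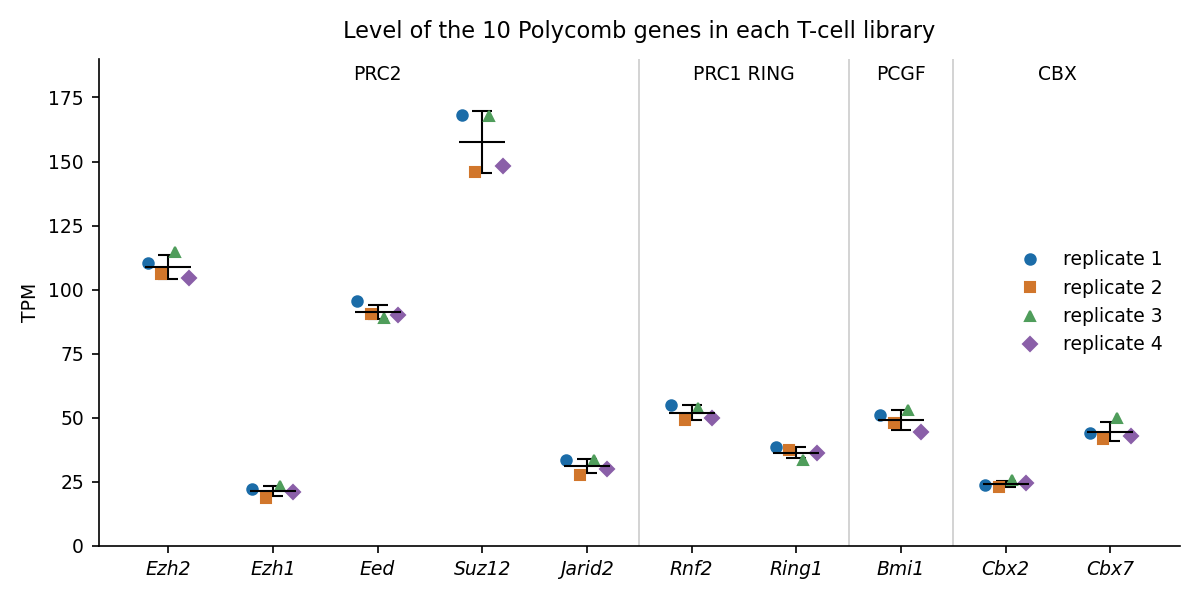
Level of each of the 10 genes in TPM on a linear axis. Points are the 4 libraries and bars are the mean with its SD; the genes run from Suz12 at 158 TPM to Ezh1 at 21.3 TPM, and the libraries of each gene lie close together.

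Suz12, the subunit that holds PRC2 together, had the highest level with counted exons as the length, though not with coding length. Suz12 stood at 168, 146, 168 and 148 TPM in replicates 1 to 4 (158 ± 12.1, SD, n = 4), above 94.2% of protein-coding genes. Ezh2, the methyltransferase prominent in dividing cells, stood at 110.4, 106, 115 and 105 TPM (109 ± 4.65), above 90.8% of protein-coding genes. Eed, which binds methylated lysine 27 and stimulates the enzyme, stood at 95.4, 90.6, 88.8 and 90.0 TPM (91.2 ± 2.90). With counted exons as the length, the libraries of these 3 core genes did not overlap with each other. Jarid2, a cofactor that helps recruit PRC2, was much lower, at 33.4, 27.7, 33.5 and 30.0 TPM (31.2 ± 2.85). Ezh1, the alternative methyltransferase found in resting cells, stood at 22.3, 18.8, 23.2 and 20.8 TPM (21.3 ± 1.94). Its mean was the lowest of the 10 with counted exons, but its range overlapped with that of Cbx2, and Cbx2 was lowest with coding length. It still stood above 68.6% of protein-coding genes.

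Among PRC1 genes, Rnf2, the ligase also called Ring1b, stood at 55.1, 48.9, 53.6 and 49.9 TPM (51.9 ± 2.96). Ring1, its paralog, stood at 38.5, 37.3, 33.3 and 36.2 TPM (36.3 ± 2.23). Rnf2 was above Ring1 in every library and their ranges did not overlap. Bmi1, the PCGF subunit of canonical PRC1 known for support of stem-cell renewal, stood at 51.2, 47.8, 52.9 and 44.4 TPM (49.1 ± 3.76). Cbx7, a reader of methylated lysine 27, stood at 43.8, 41.5, 49.96 and 43.0 TPM (44.6 ± 3.72). Cbx2, the CBX protein known for compacting chromatin, stood at 23.6, 23.1, 25.8 and 24.4 TPM (24.2 ± 1.17). The Cbx7 libraries all lay above the Cbx2 libraries.

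With counted exons, the order by mean TPM was Suz12, Ezh2, Eed, Rnf2, Bmi1, Cbx7, Ring1, Jarid2, Cbx2 and Ezh1. In 8 of the 9 neighbouring steps the higher gene was higher in all 4 libraries, and in 5 of the 9 the library ranges did not overlap. Ranges overlapped between Rnf2 and Bmi1, Bmi1 and Cbx7, Ring1 and Jarid2, and Cbx2 and Ezh1. On the log2(TPM + 1) scale, the step between Rnf2 and Bmi1 was 0.08 ± 0.07 and that between Ring1 and Jarid2 was 0.22 ± 0.18 (SD, n = 4 each). The step between Ring1 and Jarid2 was positive in 3 of 4 libraries.

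The order within PRC2 depended on the gene length used. The counted exons of Ezh2 spanned 6678 bases, against 2787 bases in its longest protein-coding transcript, a ratio of 2.40. For Suz12 the lengths were 4945 and 4373 bases, a ratio of 1.13. With the longest coding transcript as the length, a setting added after the data were seen, Ezh2 averaged 189 ± 8.78 TPM, Suz12 129 ± 10.3 TPM and Eed 122 ± 3.70 TPM (SD, n = 4 each). Ezh2 minus Suz12 was then 0.55 ± 0.06 and positive in 4 of 4 libraries, while with the counted exons it was -0.53 ± 0.06 and positive in 0 of 4. Eed minus Suz12 was -0.78 ± 0.10 with counted exons and positive in 0 of 4 libraries, but -0.07 ± 0.10 with coding length and positive in 1 of 4, so their order was not resolved there (exact sign-flip p = 0.375). Cbx7 moved above Rnf2 and Bmi1, to 61.7 ± 5.42 TPM, Ring1 at 41.8 ± 2.42 TPM had a higher mean than Bmi1 at 39.2 ± 3.12 TPM, and Ezh1 at 27.2 ± 2.58 TPM stood above Cbx2 at 19.6 ± 1.03 TPM.

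**Figure D2:**
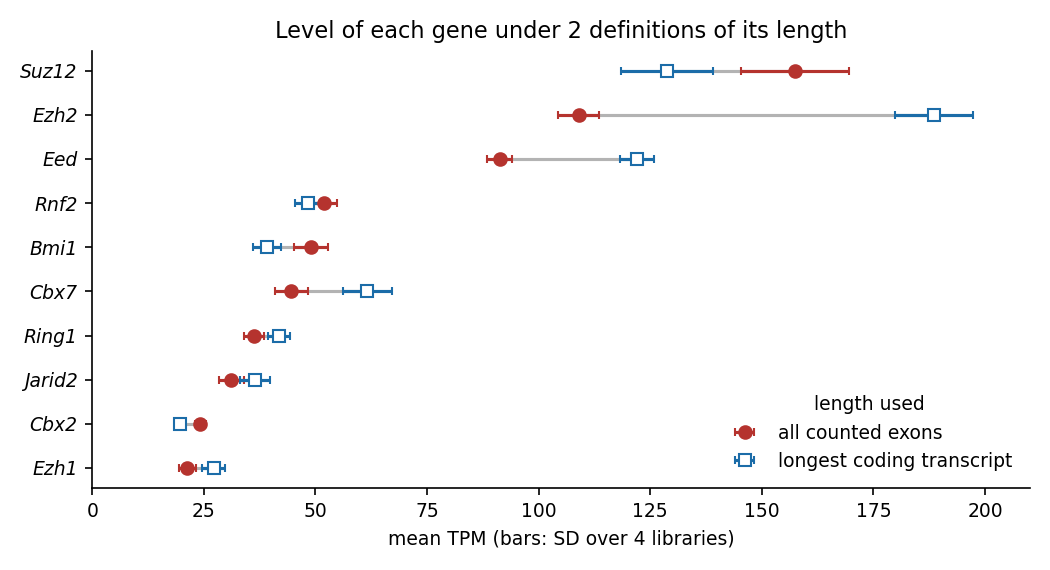
Mean level of each of the 10 genes with counted exons and with the longest coding transcript as the length (TPM, SD over 4 libraries). Ezh2 stands at 109 TPM with counted exons and 189 TPM with coding length, and it is above Suz12 only with coding length.

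Pairs of genes were compared within libraries, with an exact permutation test that flips signs and is two-sided. Some were paralogs that can take the same place in a complex. The others were Kdm6a with Kdm6b, and the pairs among Ezh2, Eed and Suz12, which are different subunits of PRC2. With 4 libraries there are 16 sign patterns, and the smallest p is 2 of 16, so no pair could pass 0.05. The pairs below therefore rest on size, spread and the number of libraries. With counted exons as the length, for 7 of the 8 pairs the sign was the same in all 4 libraries, and p was at that limit, or 0.143 after Benjamini-Hochberg adjustment over the pairs in this exact test.

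Ezh2 minus Ezh1 was 2.26, 2.44, 2.26 and 2.28 in replicates 1 to 4 on the log2(TPM + 1) scale (2.31 ± 0.09), with means of 109 and 21.3 TPM and a ratio of mean TPM of 5.12. Every library lay far from 0, and with coding length the difference was 2.75 ± 0.09. Ezh2 made up 83.7 ± 0.85% of the TPM of both methyltransferases (SD, n = 4), or 87.4 ± 0.68% with coding length. Rnf2 minus Ring1 was 0.51, 0.38, 0.67 and 0.45 (0.50 ± 0.12), and 0.20 ± 0.12 with coding length. Rnf2 made up 58.8 ± 2.12% of the ligases' TPM, so the ligase paralogs were closer in level than the methyltransferases.

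Cbx7 minus Cbx2 was 0.87, 0.82, 0.93 and 0.79 (0.85 ± 0.06), and 1.61 ± 0.06 with coding length. Of the summed TPM of the 5 Polycomb CBX genes, Cbx7 made up 28.4 ± 1.03% and Cbx2 15.5 ± 0.40%. Cbx6, a CBX gene outside the 10, had the largest share at 39.4 ± 1.05%, but with coding length Cbx7 led with 41.4 ± 1.22% and Cbx6 had 32.5 ± 0.98%. Bmi1 minus Pcgf2 was 1.44, 1.52, 1.45 and 1.24 (1.41 ± 0.12), Pcgf2 being the closest paralog of Bmi1, with means of 49.1 and 17.8 TPM. Bmi1 nevertheless made up only 18.2 ± 1.13% of the TPM of the 6 PCGF genes. Pcgf5, a subunit of a variant PRC1, made up 49.0 ± 2.52%, and its share was also above that of Bmi1 in 4 of 4 libraries by coding length. By counts it was above Bmi1 in 3 of 4 libraries, with 27.2% for Pcgf5 and 27.7% for Bmi1 in replicate 1.

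**Figure D3:**
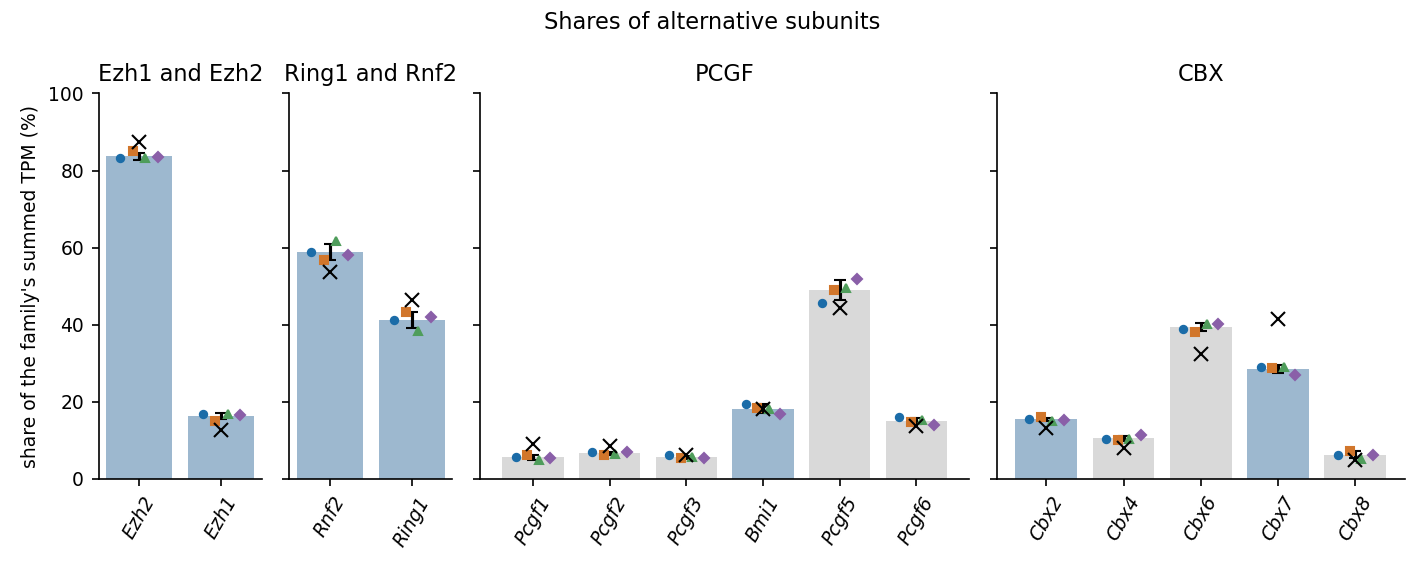
Share of each paralog in its family's summed TPM, in percent. Bars are means with SD, points are the 4 libraries and crosses are means with coding length; Ezh2 holds 83.7% of the methyltransferase TPM, and Bmi1 holds 18.2% of the PCGF TPM.

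None of the 10 genes was called variable between libraries. The edgeR test asks whether a gene varied more than genes of like abundance in these same libraries. A gene not called was thus not shown to be stable. Of 13681 genes tested with edgeR, 94 varied at a Benjamini-Hochberg adjusted p under 0.05, or 0.687%, and 959 had an unadjusted p under 0.05. The 10 members contributed 0 to both counts, and DESeq2's dispersion outliers also held 0 of the 10. Their edgeR p-values ran from 0.430 for Ring1 to 0.980 for Ezh2, with an adjusted p of 1.00 for each. The largest ratio of highest to lowest library was 1.24, for Ezh1.

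The coefficient of variation (CV) of TPM ran from 3.18% for Eed to 9.13% for Jarid2 and Ezh1. Its median was 6.90%, against 7.94% over detected protein-coding genes, and 7 of the 10 genes lay below that value. The members' counts were high, from 1503 for Ring1 in replicate 3 to 20383 for Suz12 in replicate 4, so counting error alone contributed a CV of at most 2.58%. In Suz12, Ezh2, Rnf2, Bmi1, Cbx7, Jarid2 and Ezh1, replicates 1 and 3 both lay above replicates 2 and 4, a pattern noticed after the values were seen. It held for 7 of the 10 genes, against 41.0% of detected protein-coding genes, and the opposite pattern for 0 of the 10, against 14.1%. The median length of counted exons was 5751 bases in detected protein-coding genes with the first pattern and 2290 bases in those with the opposite one. The part of length in the members' pattern was not tested. The genes most like Ring1 in their profile over the 4 libraries were Aimp1, Ptgr1 and Vta1, with root mean square differences of centred log2 CPM of 0.00518, 0.00605 and 0.00921. Of 11930 protein-coding genes compared, 2683 lay within 0.1, so likeness over 4 libraries is not specific.

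**Figure D4:**
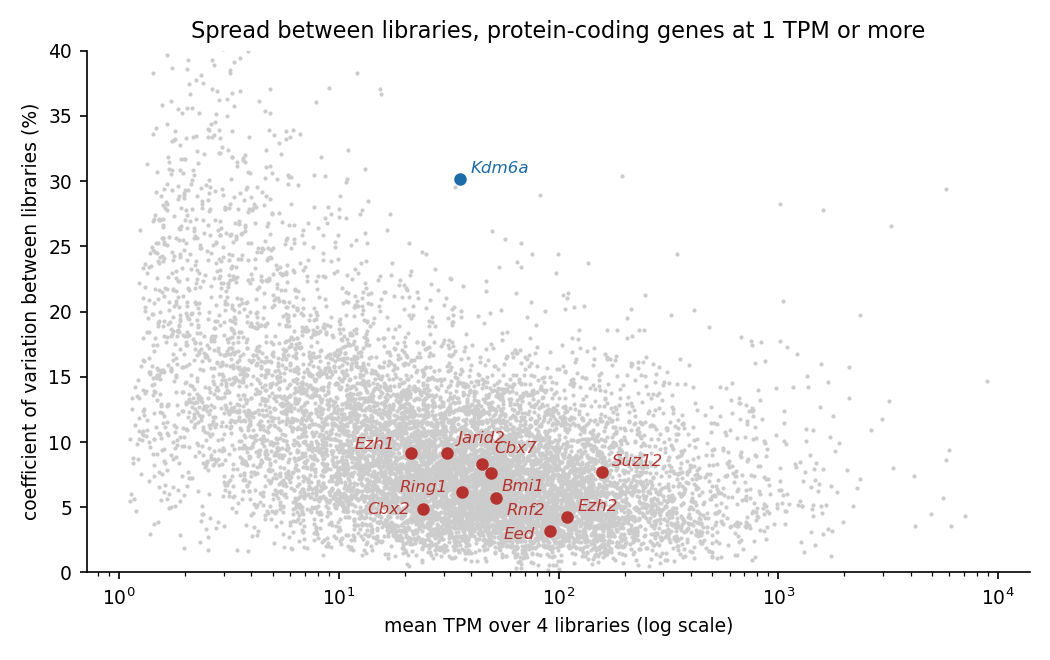
CV between the 4 libraries (%) against mean TPM on a log axis, for protein-coding genes with at least 1 TPM in every library and, in red, the 10 members, with the variable demethylase Kdm6a in blue. The members lie between 3.18% and 9.13%; 54 genes have a CV above 40% and lie beyond the axis.

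The remaining Polycomb genes were described from lists, also chosen with earlier results known. Of the 44 list genes of the Polycomb machinery and its opposing enzymes outside the 10, 40 were detected, against 49.4% of all protein-coding genes. The median over the 44 was 34.7 TPM, against 1.21 TPM over all protein-coding genes and 34.8 TPM over the detected ones. The share of 49.4% also stands beside each machinery count below. The histone-binding subunits Rbbp7 and Rbbp4 completed the PRC2 core at 518 ± 23.7 and 165 ± 2.44 TPM (SD, n = 4 each). All 6 core genes were detected, with a median of 133 TPM. Among 7 PRC2 accessory genes 6 were detected, led by Aebp2, a DNA-binding cofactor, at 137 ± 9.10 TPM. The exception was Ezhip, an inhibitor of PRC2, which had 0 counts throughout, a limit of 0.0979 TPM in a library.

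All 6 PCGF genes were detected, with a median of 29.1 TPM, from Pcgf5 at 132 ± 10.7 TPM to Pcgf1 at 14.98 ± 0.98 TPM. All 5 CBX genes were detected, from Cbx6 at 61.8 ± 6.09 TPM to Cbx8 at 9.76 ± 0.71 TPM. The other 5 subunits of canonical PRC1 were detected as well, from the polyhomeotic gene Phc2 at 76.3 ± 4.91 TPM to Scml2 at 1.66 ± 0.09 TPM. Of 10 variant PRC1 genes 9 were detected, led by the corepressor Bcor at 165 ± 18.9 TPM. Auts2 was the one below detection, at 0.0470 ± 0.013 TPM.

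Enzymes that act against Polycomb marks were also present. Of 10 genes for H2A deubiquitinases and their partners 9 were detected, led by the deubiquitinase Bap1 at 103 ± 5.12 TPM. Asxl3, a partner of Bap1, stood at 0.0210 ± 0.014 TPM. Of the 3 genes listed for the family of lysine 27 demethylases, Kdm6a and Kdm6b were detected. Kdm6a, which is X-linked, stood at 47.9, 41.0, 29.2 and 24.4 TPM, higher in replicates 1 and 2 than in 3 and 4. It was the only one of 51 machinery genes tested that varied between libraries, with an edgeR adjusted p of 9.81e-08. Uty, its Y-linked paralog, stood at 0.030 and 0.038 TPM in replicates 1 and 2 and at 14.9 and 13.2 TPM in replicates 3 and 4. The low-count filter left Uty out of the edgeR test, so it was not among the 51 genes. The split in Kdm6a and Uty ran with Xist and Ddx3y, and its cause was not tested. Kdm6b, the inducible demethylase, stood at 39.5, 29.0, 37.5 and 26.5 TPM. Kdm6a minus Kdm6b was 0.27, 0.49, -0.35 and -0.12 on the log2(TPM + 1) scale (0.07 ± 0.38, exact sign-flip p = 0.75), so with counted exons neither was higher throughout. With coding length it was 0.46 ± 0.38 and positive in 4 of 4 libraries. Without replicate 2 the mean difference was -0.063.

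**Figure D5:**
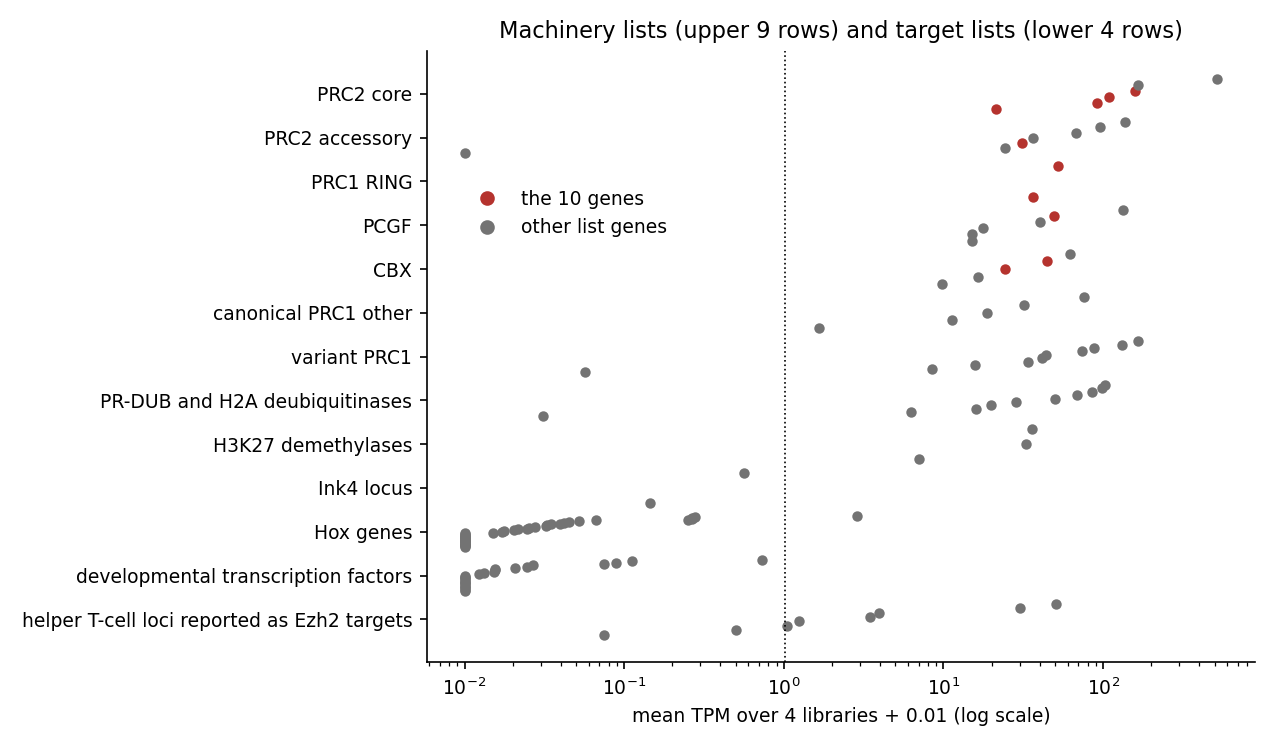
Mean TPM over 4 libraries of each gene in the Polycomb machinery lists and in the lists of classical Polycomb target genes, on a log axis of TPM + 0.01; genes at 0 lie at the left edge and the dotted line marks 1 TPM. The 10 genes are in red; the machinery genes lie mostly above 1 TPM and the Hox and developmental genes mostly below it.

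Genes known as Polycomb targets in many cell types were mostly below detection, while 49.4% of all protein-coding genes were detected. Both genes of the Ink4 locus, classical targets of Bmi1 and Cbx7, were below 1 TPM in every library. Cdkn2a stood at 0.661, 0.845, 0.490 and 0.215 TPM on 7 to 16 counts, and Cdkn2b averaged 0.136 ± 0.134 TPM on 0 to 9 counts. Of 39 Hox genes, which set position along the body axis, 1 was detected and 18 had 0 counts in all libraries. The detected one was Hoxb4, a Hox gene active in blood progenitors, at 2.18, 3.55, 2.94 and 2.74 TPM (2.85 ± 0.56). Hoxa6 and Hoxa5 followed at 0.269 and 0.257 TPM, and a count of 0 allowed at most 0.0386 to 0.209 TPM, depending on the gene.

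Of 25 transcription factors of other developmental lineages 0 were detected and 13 had 0 counts in all libraries. Gata4, a factor of heart and endoderm, averaged 0.102 TPM and En2, a factor of the midbrain, averaged 0.0789 TPM. Among all protein-coding genes 49.4% were detected and 29.6% had 0 counts in all libraries. Histone marks were not measured, so these levels do not show whether any of these genes carried a Polycomb mark.

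Of 8 helper T-cell loci reported elsewhere as targets of Ezh2, 4 were detected, against 49.4% of all protein-coding genes. The count depended on the cut-off, with 5 detected at 0.5 TPM and 2 at 5 TPM. Gata3, the master factor of type 2 helper cells, stood at 51.0 ± 3.57 TPM and the type 2 cytokine Il13 at 30.0 ± 6.16 TPM (SD, n = 4 each). Tbx21 and Eomes, factors of type 1 and cytotoxic programmes, stood at 3.92 ± 0.869 and 3.45 ± 1.08 TPM. The cytokine genes Ifng at 1.23 ± 1.16 TPM, Il4 at 1.04 ± 0.376 TPM, Il5 at 0.491 ± 0.336 TPM and Il10 at 0.0648 ± 0.080 TPM were below 1 TPM in at least 1 library. The low-count filter left Ifng, Il5 and Il10 out of the edgeR test of variability. Ifng stood at 2.95 TPM in replicate 1, against 0.444 to 0.908 TPM in the other libraries. None of the 5 genes tested passed, and 2 had an unadjusted p under 0.05.

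Counting was strand-specific, and no member shared exon bases with a gene on its own strand. On the opposite strand 5 members did: Cbx7 shared 100 bases with Apobec3 at 133 TPM, Rnf2 shared 158 bases with Trmt1l at 25.0 TPM, and the partners of Ezh2, Suz12 and Eed stood at 0 to 0.301 TPM.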

How the data were processed

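Total RNA of mouse T cells was sequenced in 4 libraries. The deposited values are raw counts of fragments, in a separate table for each library. Per the file headers, the authors made them with featureCounts 1.4.6-p4 and GENCODE mouse release 13, summing exons by gene. Per the file headers, both mates had to align and only the reverse strand was counted. Per the labels, the build is mm10. The aligner's version is not given in the sources used here. Reads shared with near-identical copies elsewhere were not assessed, and the headers set no option for them.

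TPM was computed here over all genes from the counts and the exon lengths. The design assumed another unit, so the count test was run on the counts as deposited. GENCODE mouse release 21 gave symbols to 50376 of 50600 genes. The deepest library held 1.90 times the counts of the shallowest, 94222415 against 49613182. Floors take 3 counts per library where a gene had 0, and they cover counting error only.

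Variability was tested with edgeR 4.0.16 (R 4.3.3) as an intercept-only model with trended dispersion, after TMM scaling and filterByExpr. Each gene's deviance was referred to a chi-square with 3 degrees of freedom, and p-values were adjusted by Benjamini-Hochberg over all genes tested. Pairs were compared on log2(TPM + 1), where a pseudocount of 1 makes differences of low genes too small. The other steps used Python 3.11.15 with scipy 1.17.1, pandas 2.3.3, numpy 2.4.6 and, for plots, matplotlib 3.10.9.

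The 10 members, the 15 lists of 145 genes and the motifs were chosen with earlier results of these data known. The genes named are the members, both genes of each pair, the highest detected and the lowest gene of each Polycomb list outside the members, any such gene called variable, every demethylase, Ink4 and helper-locus gene, the 3 highest Hox and developmental genes, the 3 genes nearest in profile to the member with the smallest p, and the cell-type markers, given mostly as sums. A gene among these is not reported here. Xist, Ddx3y and the genes that share exon bases with members were named after their values were seen.

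Alternatives were a pseudocount of 0.1, CPM or shares of counts, TMM factors on TPM, TPM over protein-coding genes, and detection at 0.5 or 5 TPM or 10 counts. For variability they were DESeq2 1.42.0 size factors, its dispersion outliers, a single common dispersion, and a mean count of at least 50 or no filter. Each replicate was left out in turn. The longest coding transcript of release 21 as the length was added after the data were seen. RefSeq windows were not used for Cbx2.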

Additional observations from a re-analysis of the deposited data

Results flagged for a closer look

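In 8 of 84 sets of 4 library values examined, 1 library stood apart from the other libraries by most of the range that the 4 covered (Dixon's test). Chance flags about 1 in 20 groups of normally distributed values, and several of the 8 share the same genes.

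Among the members, replicate 2 stood apart in the balance of the methyltransferases. Ezh2 minus Ezh1 was 2.44 on the log2(TPM + 1) scale in replicate 2, against 2.26 to 2.28 in the other libraries. Ezh2 accordingly made up 85.0% of the TPM of both genes there, against 83.2 to 83.4%, and Ezh1 made up 15.05%, against 16.6 to 16.8%. Ezh2 minus Eed was 0.37 in replicate 3, against 0.21 to 0.22 in the other libraries.

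The other 4 were genes near 0. Auts2 stood at 0.0659 TPM in replicate 3, against 0.0379 to 0.0425 TPM in the other libraries. En2 stood at 0.244 TPM in replicate 4, against 0.0175 to 0.0337 TPM. The myeloid marker Itgax stood at 0.0258 TPM in replicate 2, on 2 counts. Lyz2 stood at 0.0546 TPM in replicate 3, on 1 count. Each had 0 counts in the other libraries, so the test was bound to flag it. The causes were not tested.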

How the results depend on the processing

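All 10 members were detected, and 0 of 10 were called variable, under every alternative run. Over all genes the variable genes numbered 94 as reported, 617 with a common dispersion and 38 to 87 when 1 replicate was left out. Detected Hox genes numbered 0 at 5 TPM, detected developmental factors 1 at 0.5 TPM and 1 at 10 counts, and detected helper loci 2 at 5 TPM. Ezh2 minus Suz12 was -0.53 as reported and 0.55 with coding length, where the changed length is the only difference. Kdm6a minus Kdm6b was 0.07 as reported and -0.063 to 0.21 when 1 replicate was left out, -0.063 being without replicate 2. It was 0.30 by CPM and 0.46 with coding length, where it was positive in 4 of 4 libraries. Eed minus Suz12 was -0.78 as reported and -0.07 with coding length, where it was positive in 1 of 4. By counts, the shares of Ezh2, Rnf2, Bmi1, Cbx2 and Cbx7 in their families were 82.2, 64.5, 26.6, 11.4 and 32.0%; with coding length those of Ezh2, Rnf2, Cbx2 and Cbx7 were 87.4, 53.6, 13.2 and 41.4%. The TPM of all 10 members moved by more than 1 SD with coding length, and that of 4 of 10 did over protein-coding genes. No paired analysis was possible because the labels give 1 group. With 4 libraries, no sign-flip test could pass 0.05, and small differences between libraries cannot be told from their spread.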
